A study of Arabidopsis thaliana with 6 samples.

Results

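The BCS1-like AAA-type ATPases are a family of predicted membrane-bound ATPases in Arabidopsis thaliana, and 10 loci of this family were listed for description in leaves of the ka120 mutant and of the wild type. The members were taken as the loci represented by a probe set that the array annotation pairs with a single gene. This found 9 of the 10 loci, each with 1 probe set, among 13286 genes named in this way. AT2G18193 is not analysed here. The family was selected on measured values of these same arrays, the ka120 minus WT differences. These put AT3G28540 and AT1G43910 among the 10 largest rises of the named genes, and at ranks 23 and 42 of all 22746 probe sets. The differences between ka120 and WT given for the members are therefore a description and carry no test. The family name comes from the list and from general knowledge of these loci, since the tables carry no gene descriptions.

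The ka120 plants are a mutant of KA120, a nuclear transport receptor of the importin-beta family, and the WT plants are accession Col-0. The sources used here do not give the allele or its site in the gene. Each genotype had 3 biological replicates on 1 array each, with untreated plants on soil at 22 degrees C and equal 12 h periods of light and dark. The records disagree on the material: the design names entire rosettes at 3 weeks, whereas the sample labels name mature leaf and the growth protocol 4 weeks.

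BCS1 is best known from budding yeast, where it is an AAA ATPase of the inner mitochondrial membrane that moves the folded Rieske iron-sulphur protein into respiratory complex III. AAA ATPases assemble into rings and use ATP hydrolysis to move or unfold proteins. In Arabidopsis the family is expanded and many loci lie in tandem. Its best studied locus, AT3G50930 (OM66), encodes a protein of the outer mitochondrial membrane that has been linked to salicylic acid and cell death, and another, AT5G40010, has been linked to seed development. Neither of these loci is analysed here. For most of the members below no specific substrate is established.

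The values were log2 levels, 1 per probe set, and levels of different probe sets cannot be set against each other. Array medians lay between 4.63 and 4.79, and 22746 probe sets were tested with limma. The number of arrays limits the precision. In leaf tissue analysed in bulk, fewer cells that express a gene and less transcript per cell cannot be told apart.

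Patterns differed among the members. AT3G28540, AT1G43910 and AT5G17760 were far higher in ka120, AT3G28510 and AT3G28580 were slightly higher at dim levels, and AT2G18190, AT3G28600, AT3G28610 and AT5G17730 were dim in both genotypes with overlapping arrays. AT3G28540 gave 9.47, 9.38 and 9.40 on the ka120 arrays, against 5.83, 5.44 and 5.30 on the WT arrays. All 3 ka120 arrays lay above all 3 WT arrays, with 3.55 on the log2 scale between the lowest ka120 array and the highest WT array. The mean level was 9.42 ± 0.05 in ka120 and 5.52 ± 0.28 in WT (log2, SD, n = 3 each), a log2 difference of 3.89 (SE 0.13). This was the largest difference among the members and the rise of rank 4 among the 13286 named genes. The ka120 mean stood at percentile 96.6 of all probe sets and the WT mean at percentile 60.7, so AT3G28540 was the member whose probe set was well within the array's range in both genotypes.

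AT1G43910, the single member on chromosome 1, gave 6.91, 6.90 and 6.95 in ka120, against 3.64, 3.32 and 3.43 in WT. The genotypes were 3.26 apart at their closest arrays, and the ka120 arrays lay close together. Its means were 6.92 ± 0.02 in ka120 and 3.46 ± 0.16 in WT (log2, SD, n = 3 each), a log2 difference of 3.46 (SE 0.10) and rank 9 among the named genes. The WT mean was at percentile 30.7, and whether such a level exceeds background is not shown by these values, so the difference is not given as a fold.

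AT5G17760 gave 6.19, 5.91 and 6.22 in ka120, against 3.19, 3.54 and 3.62 in WT. It too had all ka120 arrays above all WT arrays, with a gap of 2.29. The log2 difference was 2.65 (SE 0.13), from 6.11 ± 0.17 in ka120 against 3.45 ± 0.23 in WT (SD, n = 3 each). It ranked 28 among the named genes, the next member after AT1G43910. AT5G17760 belongs to the family chosen on these differences, so its rise too is a description only. Its WT mean was at percentile 30.3, and its ka120 mean at percentile 67.0. WT replicate 1 was the highest WT array for AT3G28540 and AT1G43910 and the lowest for AT5G17760, so the WT arrays did not deviate together across these 3 genes.

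**Figure D1:**
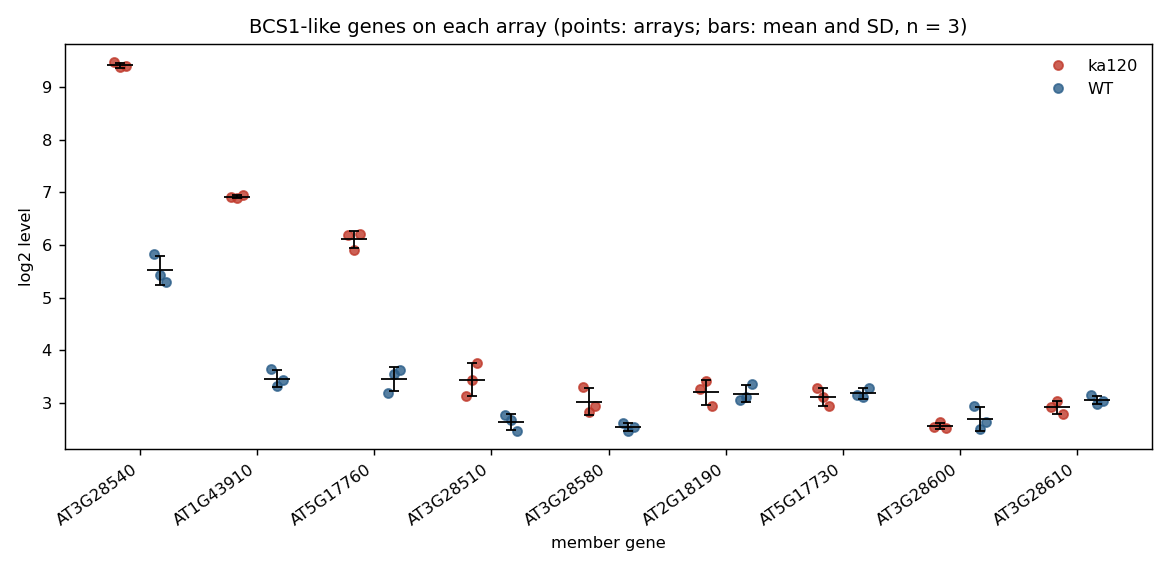
Log2 level of each of the 9 measured BCS1-like genes (vertical axis) on the 3 ka120 arrays and the 3 WT arrays, with genes ordered by their difference. Points are arrays and bars are the mean with its SD; AT3G28540, AT1G43910 and AT5G17760 are separated by 3.55, 3.26 and 2.29, and the 4 genes on the right overlap.

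AT3G28510 gave 3.13, 3.44 and 3.75 in ka120, against 2.77, 2.68 and 2.47 in WT. AT3G28580 gave 3.31, 2.83 and 2.94 in ka120, against 2.63, 2.48 and 2.55 in WT. Both had all ka120 arrays above all WT arrays, but by only 0.36 for AT3G28510 and 0.20 for AT3G28580. The log2 differences were 0.80 (SE 0.15) for AT3G28510 and 0.48 (SE 0.12) for AT3G28580. The ka120 means stood at percentiles 30.4 and 17.0 and the WT means at percentiles 2.70 and 1.26, in the same order. These dim levels were not shown to exceed background in either genotype.

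The remaining 4 members showed no separation of the genotypes. AT2G18190, the measured member of the chromosome 2 pair, gave 3.26, 3.41 and 2.94 in ka120 and 3.05, 3.11 and 3.35 in WT. AT5G17730, which lies near AT5G17760 on chromosome 5, gave 3.28, 3.12 and 2.95 in ka120 and 3.14, 3.11 and 3.29 in WT. The genotypes overlapped in both genes, with log2 differences of 0.03 (SE 0.13) for AT2G18190 and -0.07 (SE 0.11) for AT5G17730. AT3G28600 gave 2.54, 2.63 and 2.52 in ka120 and 2.95, 2.51 and 2.63 in WT, a log2 difference of -0.13 (SE 0.12). AT3G28610 gave 2.93, 3.03 and 2.79 in ka120 and 3.14, 2.98 and 3.05 in WT, a log2 difference of -0.14 (SE 0.10). AT3G28600 and AT3G28610 close the chromosome 3 cluster, and their ka120 means were at percentiles 1.80 and 12.7, with WT means at 4.04 and 16.6.

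In the fit across the whole array, 5 of 9 members passed an adjusted p of 0.05 as higher in ka120 (limma, Benjamini-Hochberg), where 19.4% of all probe sets did, and 0 passed as lower, where 16.5% did; at an unadjusted p of 0.05 the count of lower members was also 0. All 3 ka120 arrays lay above all 3 WT arrays for 5 members, against 23.8% of probe sets, and below them for 0 members, against 22.8%. A log2 difference above 1 was seen in 3 members and in 3.85% of probe sets, and one above 2 in the same 3 members and in 0.875% of probe sets. Of the 9 members 8 had a WT mean below percentile 40. Among all 9098 probe sets this dim in WT 8.65% passed as higher and 0.714% differed by more than 2. The median log2 difference was 0.48 over the measured members and -0.02 over all probe sets. The contrast was used to choose the family, so nothing is read from these shares.

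**Figure D2:**
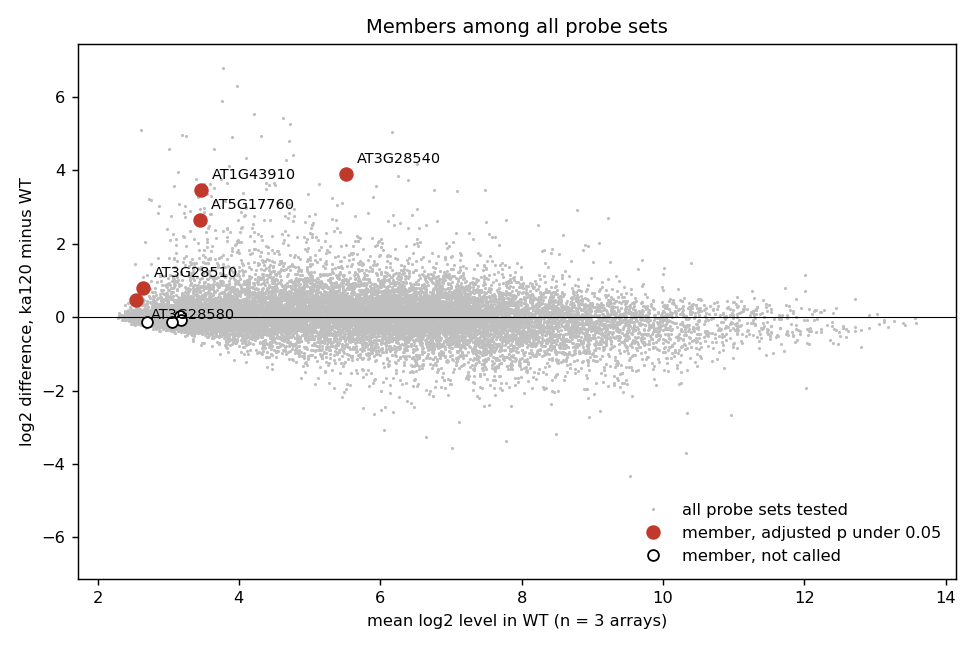
Log2 difference of ka120 minus WT (vertical axis) against the mean log2 level in WT (horizontal axis, n = 3 arrays) for all 22746 probe sets in grey, with the 9 members on top. Filled points passed an adjusted p of 0.05; AT3G28540 starts from a WT level of 5.52, while the other members have WT means of 3.46 or less.

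The members were then placed in the order of the TAIR10.1 gene table, which was used for names and neighbours. Their chromosome 3 cluster runs from AT3G28510 to AT3G28610 and spans 13 genes, of which 7 are BCS1-like loci on the lists used here and 5 are members. Within it the called genes alternated with uncalled ones. AT3G28540, with its difference of 3.89, stood between measured genes that did not pass: the 5 measured genes inside the span that are not members had log2 differences between -0.22 and -0.01, and 0 passed an adjusted p of 0.05 (limma, adjusted p between 0.25 and 0.979; also 0 at an unadjusted p of 0.05). One of these 5 is itself a BCS1-like locus. Over all probe sets 35.9% passed in either direction. On chromosome 5 the 4 consecutive loci from AT5G17730 to AT5G17760 are all BCS1-like. AT5G17740 and AT5G17750 share 1 probe set, which was very dim and gave 2.40, 2.48 and 2.45 in ka120 and 2.58, 2.50 and 2.58 in WT (log2 difference -0.11, SE 0.09, limma adjusted p = 0.378). Thus the rise of 2.65 in AT5G17760 was not seen in the probe sets for the other 3 loci of that tandem group. Whether probes of one locus also bind transcripts of a related one was not tested, so signals of close relatives are uncertain.

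Over the 4 locations, 29 measured genes that are not members lay inside the clusters or were among the 3 nearest on either side. Of these, 4 rose and 3 fell (limma adjusted p of 0.05), against 35.9% of all probe sets called in either direction. AT2G18220, which encodes a Noc2-type nucleolar protein, rose by 1.38 (SE 0.20, adjusted p = 0.000296) with 6.28, 5.85 and 6.40 in ka120 against 4.38, 4.76 and 5.25 in WT. AT3G28480, a prolyl hydroxylase-like gene before the chromosome 3 cluster, rose by 1.29 (SE 0.09, adjusted p = 1.19e-06). AT5G17700, a MATE-type transporter gene, rose by 0.61 (adjusted p = 0.000408), and the dim AT5G17830 by 0.36 (adjusted p = 0.0147). AT1G43900, a protein phosphatase gene directly before AT1G43910, fell by 0.51 (SE 0.10, adjusted p = 0.00182), the dim AT1G43940 fell by 0.49 (adjusted p = 0.0327), and AT3G28500, an acidic ribosomal protein gene, fell by 0.39 (adjusted p = 0.0213). The other 22 neighbours had differences between -0.27 and 0.19. No neighbour reached the differences of AT3G28540, AT1G43910 or AT5G17760. A log2 difference above 2 was seen in only 0.875% of all probe sets, and the family was chosen for its large rises, so nothing is read from this. The calls of AT1G43940 and AT3G28500 were each lost when 1 array was left out: AT1G43940 without any 1 array other than WT replicate 2 (-0.53 to -0.31, adjusted p 0.0593 to 0.11), and AT3G28500 without ka120 replicate 1 or 3 or WT replicate 1 or 2 (-0.36 to -0.34, adjusted p 0.0521 to 0.0891). AT5G17830 lost its call without ka120 replicate 2 (0.27, adjusted p = 0.0587) and with median centring (0.23, adjusted p = 0.0891). AT1G43940 was also not called with array weights (-0.38, adjusted p = 0.0586), and centring on the hybridization controls ended the calls of AT1G43940 (-0.26, adjusted p = 0.177) and AT3G28500 (-0.16, adjusted p = 0.32). Removing the control offset by level ended the calls of AT1G43900 (-0.08, adjusted p = 0.561), AT1G43940 (-0.05, adjusted p = 0.772) and AT3G28500 (0.05, adjusted p = 0.749).

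**Figure D3:**
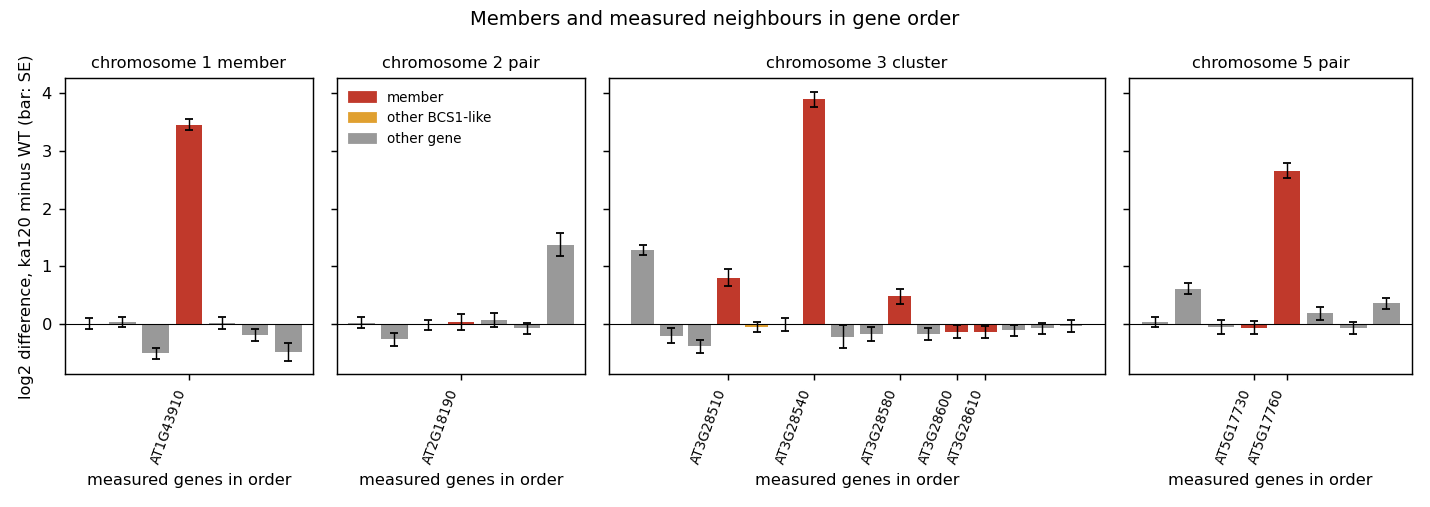
Log2 difference of ka120 minus WT with its SE (vertical axis) for the members and their measured neighbours, in gene order without distances, in 4 panels by location. The tallest bars, 3.89 for AT3G28540, 3.46 for AT1G43910 and 2.65 for AT5G17760, stand beside measured genes with smaller differences. Among these AT1G43900, directly before AT1G43910, was called lower at -0.51.

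The genes with the most similar pattern were found by the root mean square distance over the 6 arrays after subtracting each gene's WT mean. For AT3G28540 the 3 nearest of the named genes were AT3G48640 at a distance of 0.16, AT4G00700, which encodes a multiple C2 domain protein, at 0.18 and AT5G59670, a receptor-like kinase gene, at 0.18 on the log2 scale. For AT1G43910 they were AT1G13470 at 0.18, AT5G59670 at 0.19 and AT1G76960 at 0.22. AT5G59670 was on both lists, with 7.48 ± 0.06 in ka120 and 3.83 ± 0.32 in WT (log2, SD, n = 3 each). AT1G43910 and AT3G28540 were 0.33 apart, which placed AT1G43910 at rank 5 from AT3G28540, and AT3G28540 at rank 10 from AT1G43910. AT5G17760 was at rank 29 from AT3G28540, at a distance of 0.93. With 6 arrays in 2 groups this distance mostly reflects the size of the genotype difference.

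Of 14 further BCS1-like loci 6 were measured, and 1 of them rose, where 19.4% of all probe sets did. AT2G46620 gave 4.74, 4.83 and 4.70 in ka120 against 4.35, 4.21 and 3.78 in WT, 0.64 higher in ka120 on the log2 scale (SE 0.13, limma adjusted p = 0.00313). The other 5 had differences between -0.15 and 0.18 and did not pass (adjusted p 0.165 to 0.829). They were dim, with ka120 means at percentiles 3.07 to 24.3 and WT means at 1.78 to 25.4. AT3G50940, which lies beside OM66, was among them at 3.07 ± 0.10 in ka120 and 2.89 ± 0.08 in WT (SD, n = 3 each; difference 0.18, adjusted p = 0.165). It passed as higher under both control-based scalings, which use the array's hybridization controls as the centre or remove their offset by level (0.41 and 0.62, adjusted p = 0.00591 and 8.74e-05). The median difference of the 6 loci was -0.01, and -0.02 over all probe sets. Adding these loci to the members, the large differences were seen in 3 of 15 measured BCS1-like genes.

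Genes of mitochondrial functions near the yeast role of BCS1 were listed alongside the family. Of 15 complex III genes 11 were measured, of which 2 rose and 1 fell (limma), where 19.4% of all probe sets rose and 16.5% fell. MPPBETA (AT3G02090), a core subunit that also processes imported proteins, rose by 0.44 (SE 0.10, adjusted p = 0.00387), with 10.3 ± 0.09 in ka120 and 9.85 ± 0.10 in WT (SD, n = 3 each). AT5G25450, a QCR7-type subunit, rose by 0.49 (adjusted p = 0.00652), and AT3G52730, a QCR9-type subunit, fell by 0.32 (adjusted p = 0.0172). The other 8, including the processing peptidase alpha subunit AT1G51980 (0.25, adjusted p = 0.083), had differences between -0.26 and 0.25. The list's median was 0.04. The AT3G52730 call was lost without ka120 replicate 1 (-0.27, adjusted p = 0.0847) and under both control-based scalings (-0.09 and -0.03, adjusted p = 0.556 and 0.824). AT1G51980 passed as higher under quantile normalization (0.33, adjusted p = 0.0222), a trended robust prior (adjusted p = 0.0389) and both control-based scalings (0.48 and 0.50, adjusted p = 0.00512 and 0.00177). The Rieske protein genes are not analysed here.

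Of 10 other AAA+ proteases and chaperones of mitochondria 2 were measured, both of the CLPX type. AT1G33360 rose by 0.31 (SE 0.11, limma adjusted p = 0.0458), and AT5G49840 gave -0.04 without passing. Over all probe sets 19.4% rose. The AT1G33360 call was lost in 9 of 15 alternative settings, among them 5 of the 6 that left out 1 array (adjusted p 0.0578 to 0.187).

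Of 15 genes of alternative respiration and the mitochondrial retrograde response, through which disturbed mitochondria alter nuclear gene expression, 5 were measured. Of these 2 rose, where 19.4% of all probe sets did. NDB2 (AT4G05020), an external alternative NADH dehydrogenase, gave 7.25, 7.25 and 7.13 in ka120 against 5.95, 5.70 and 5.58 in WT. All ka120 arrays were above all WT arrays, and the gene rose by 1.46 on the log2 scale (SE 0.11, limma adjusted p = 2.3e-06). AT2G21640, a gene known to respond to oxidative stress, rose by 0.79 (SE 0.11, adjusted p = 0.000259), with 5.72 ± 0.13 in ka120 and 4.92 ± 0.19 in WT (SD, n = 3 each). NDB4, a relative of NDB2, gave -0.21 (adjusted p = 0.167; -0.32 and adjusted p = 0.0429 without WT replicate 2, and -0.34 and adjusted p = 0.0296 with median centring), and the 3 genes that did not pass lay between -0.21 and 0.18. The list's median was 0.18, against -0.02 over all probe sets.

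**Figure D4:**
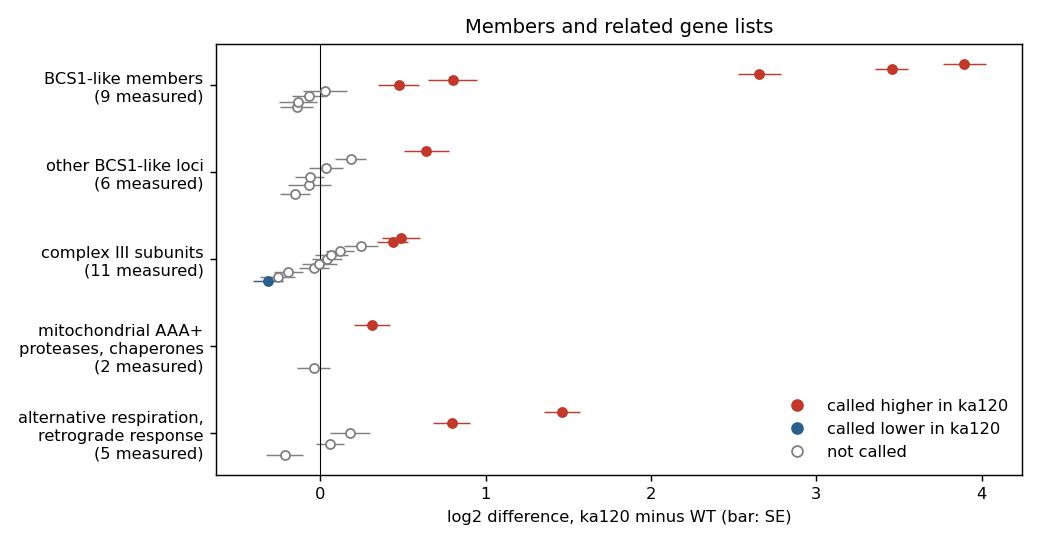
Log2 difference of ka120 minus WT with its SE (horizontal axis) for the 9 members and the measured genes of 4 related lists. Red points passed an adjusted p of 0.05 as higher and blue as lower; in the lists other than the members the differences reach at most 1.46.

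Some marker genes differed between the genotypes too, on arrays where 35.9% of all probe sets were called in either direction. Of 8 leaf photosynthesis markers 4 were measured, at percentile 99.4 of all probe sets or above in ka120 and at 99.6 or above in WT. Of these 3 fell: PSAN by 0.82 (limma adjusted p = 6.05e-05), LHCB4.2 by 0.68 (adjusted p = 0.000135) and PRK by 0.30 (adjusted p = 0.0313), while RCA gave -0.09. The PRK call was lost without ka120 replicate 1 (-0.31, adjusted p = 0.0771), ka120 replicate 2 (-0.23, adjusted p = 0.114) or WT replicate 2 (-0.26, adjusted p = 0.1003). PRK did not pass with a replicate block (adjusted p = 0.0582), under quantile normalization (-0.21, adjusted p = 0.102) or under the control-based scalings (-0.07 and -0.22, adjusted p = 0.636 and 0.138). The summed level of the 4 leaf markers after reversing the log, which weights the brightest probe sets most, was 16898 to 17880 in ka120 and 21789 to 23896 in WT. Of 4 root markers 3 were measured and 1 rose, PYK10, a beta-glucosidase of ER bodies, by 0.98 (adjusted p = 0.011), with 7.83 to 8.41 in ka120 against 6.58 to 7.78 in WT. The PYK10 call was lost without ka120 replicate 3 (0.82, adjusted p = 0.054). The root hair genes EXPA7 and EXPA18 gave -0.01 and -0.31 without passing. EXPA18 passed as lower without WT replicate 3 (-0.40, adjusted p = 0.0375), under median centring (-0.43, adjusted p = 0.024) and in the fit blocked by replicate number (adjusted p = 0.0371). The summed level of the 3 root markers was 251.2 to 360.7 in ka120 and 123.0 to 243.4 in WT. PYK10, the brightest of the 3, makes up most of this sum, so the sum does not describe EXPA7 and EXPA18. Of 3 guard cell markers 1 was measured, the lineage gene FMA, which gave -0.04. Of 4 senescence markers 1 was measured, SAG29, which fell by 0.71 (limma adjusted p = 0.00541). With the control offset removed by level SAG29 gave -0.28 (limma adjusted p = 0.0868). A single gene does not describe its cell type or state. No marker of flower, seed or phloem had a probe set that the annotation pairs with it alone, so none could be read. On a log2 array no marker is at 0. The part of these differences in the values of the members was not tested.

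The hybridization controls, which are added to each array in fixed amounts, differed between the genotypes. The difference ran from -0.44 for BioB, the dimmest control, to 0.02 for Cre, the brightest. BioB itself averaged 7.28 in ka120 and 7.72 in WT, above the array medians, so no control covered dimmer levels. Because the controls differed, the 5 higher members were also read under 4 other scalings. These moved the median of all probe sets. It was -0.02 with the deposited values and with quantile normalization, and -0.15 with median centring. With the hybridization controls as the centre it was 0.21, and 0.41 with the control offset removed by level. In this last setting the BioB offset was carried down to all dimmer probe sets, the members among them. That offset was not measured at dim levels. Over all 15 alternative settings AT3G28540 lay between 3.77 and 4.33, AT1G43910 between 3.33 and 3.89 and AT5G17760 between 2.52 and 3.09, in that order each time. AT3G28510 lay between 0.65 and 1.24 and AT3G28580 between 0.33 and 0.91 in the 14 settings that kept them. The 4 members near 0 had no settled direction: their differences ranged from -0.27 to 0.47 across settings.

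**Figure D5:**
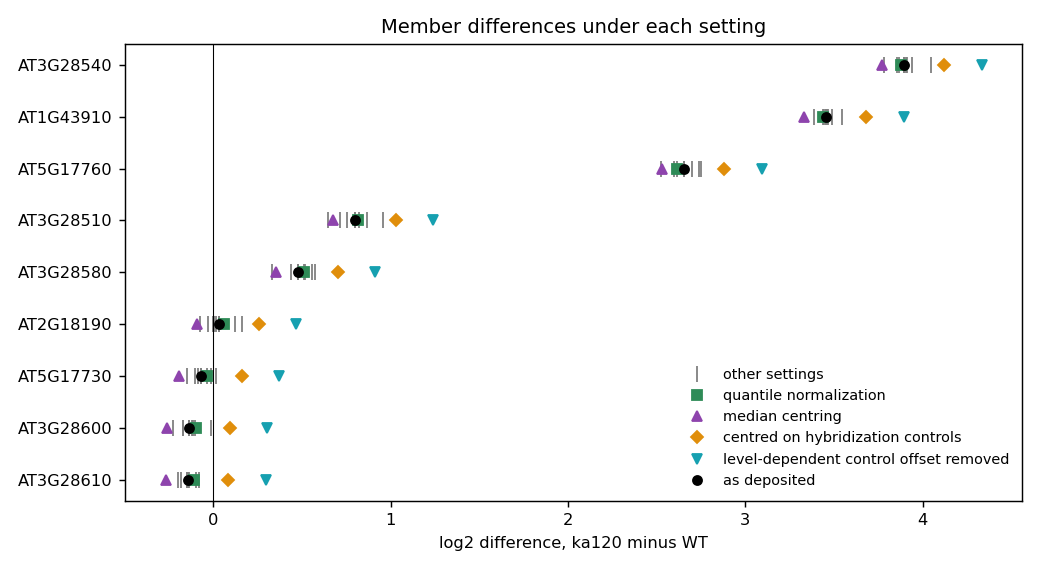
Log2 difference of ka120 minus WT (horizontal axis) of each member as deposited and under each alternative setting, with the 4 scalings marked by shape. The 5 upper members stay above 0 in all settings shown, while the 4 lower ones change side with the scaling.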

How the data were processed

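Biotin-labelled RNA of 3 ka120 and 3 WT samples was measured on 3-prime expression arrays, 1 per sample. The deposited values are log2 levels, as their range of 2.16 to 13.65 shows. The authors used affy, per the submitters' processing notes. The sources used here do not give its version, background correction, normalization or probe summary. Of 22810 probe sets 64 array controls were left out. The platform annotation, matched by gene identifier to the TAIR10.1 gene table, named 1 gene for 13513 probe sets (13436 matched), several for 503 and none for 8730. Where a gene had several probe sets, the brightest stood for it. Genes of a list were counted as measured only where a probe set named them alone. Whether the others lie on shared or unnamed probe sets was not examined for the lists.

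Differences were fitted with limma 3.58.1 in R 4.3.3 (lmFit, eBayes, no block, no filter), with Benjamini-Hochberg adjustment over 22746 probe sets and a threshold of 0.05. The fit was tested on simulated data. The members and lists were chosen with earlier results of these data known. Named were all members, the 3 largest called differences and 1 uncalled gene of each list, the called neighbours, all measured markers and the 3 genes nearest in pattern to AT3G28540 and AT1G43910. The alternatives were 4 scalings, removal of the dimmest 40% of probe sets, a trended robust prior, array weights, a replicate block, removal of probe sets without a single gene, and each array left out.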

Additional observations from a re-analysis of the deposited data

How the results depend on the processing

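The 5 higher members kept direction and call in all alternatives that held them, which is a description only, since the same contrast chose the family. The call of the dim AT3G28580 came close to the threshold with median centring, without WT replicate 2 and without ka120 replicate 1. With the dimmest 40% of probe sets left out 3 members were tested, and 3 were called. This filter used the mean over all 6 arrays, those of ka120 included. AT1G43910 and AT5G17760 had WT means at percentiles 30.7 and 30.3 and ka120 means at 78.1 and 67.0. They thus passed the filter through their ka120 levels, so nothing is read from this count. Removing the level-dependent control offset called 16857 probe sets, 9 members, 6 other BCS1-like loci, 7 complex III genes, 2 CLPX genes, 4 retrograde genes and 20 neighbours, with a median difference over all probe sets of 0.41 against -0.02 as deposited. Under it AT3G28600 (0.30), AT3G28610 (0.30), AT5G17730 (0.37), AT5G49840 (0.40), EXPA7 (AT1G12560, 0.42) and FMA (AT3G24140, 0.40) turned from uncalled and below 0 to called higher. AT3G28500, called lower as deposited, came to lie near 0 (0.0483) and was not called (limma adjusted p = 0.749). This setting carries the BioB offset down to all dimmer probe sets. Centring on the hybridization controls called 2 other BCS1-like loci and 4 retrograde genes. It called 7971 probe sets higher and 1955 lower, against 4405 and 3760 as deposited and 3318 and 6235 after median centring. Median centring called 2 other BCS1-like loci (1 higher and 1 lower) and 5 complex III genes (2 higher and 3 lower). The count of CLPX genes called was 0 under quantile normalization, median centring and the trended prior. Leaving out probe sets without a single gene left 4347 calls of 13513 tested. With each array left out, the counts ran from 6736 to 7878 for all probe sets, 5 to 5 for members, 0 to 1 for CLPX genes, 2 to 3 for retrograde genes, 2 to 4 for complex III and 5 to 7 for neighbours.

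With a replicate block 7868 probe sets, 5 members, 1 other BCS1-like locus and 0 CLPX genes were called. The deviations of arrays that share a number correlated at -0.01, -0.19 and 0.13, so the shared numbers do not show a pairing. No pseudocount was varied, as log2 values need none. Dim levels cannot be told from background here, which limits the members other than AT3G28540 in WT. In ka120 it also limits AT3G28510, AT3G28580 and the 4 uncalled members, with means at percentiles 1.80 to 30.4.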
